A study of Mus musculus with 9 samples.

Results

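The genes described here are Egfr, which encodes the receptor bound by the GE11 peptide on the Cadict nanodrug, and 9 genes that act directly with it: the receptors Erbb2 and Erbb3, the ligands Hbegf, Areg, Ereg and Tgfa, and the regulators Errfi1, Cbl and Grb2. They were chosen by gene symbol, and each of the 10 had a row among the 16509 genes of the expression table. RNA came from MC38, a cell line of mouse colon carcinoma, in 3 groups of 3 libraries. Ctrl cells received DMSO by the sample labels and PBS by the study's methods. Cu-Cys cells received copper chloride with cystine, and Cadict cells received the nanodrug, which joins copper and cystine with glucose oxidase and carries GE11. No dose or treatment time was given for these libraries in the sources used here. Cadict therefore differed from Cu-Cys by glucose oxidase, by GE11 with its DSPE-PEG carrier, and possibly by the particle itself. These parts cannot be told apart in this design. The study also describes particles formed by copper and cystine alone, so Cu-Cys may have been a particle too. Since the labels do not state that replicates came from separate cultures, p-values measure only the spread between these libraries.

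EGFR (ErbB1) is a receptor tyrosine kinase at the cell surface. On binding a ligand it pairs with another EGFR molecule or with ErbB2 or ErbB3, and the phosphorylated tails recruit adaptors that switch on the RAS-ERK and PI3K-AKT cascades. The ligands are made as membrane-anchored precursors and are released by proteases of the ADAM family. Active receptor is ubiquitinated by Cbl, taken up through clathrin-coated pits and degraded, while Errfi1 and genes of the ERK response damp the kinase. EGFR signalling is best known in epithelial tissues and in the carcinomas that arise from them.

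Egfr was close to absent from the RNA of these cells. The 3 Ctrl libraries held 0, 2 and 2 Egfr counts, the 3 Cu-Cys libraries held 0, 0 and 0, and the 3 Cadict libraries held 5, 5 and 2. Egfr was the only one of the 10 genes with fewer than 10 counts in every library, the limit used here for near zero. Areg came next, with 0, 0 and 1 counts in Ctrl, 0, 0 and 1 in Cu-Cys, and 3, 10 and 8 in Cadict. Neither gene passed the count filter, so both stay outside the model and are given by their counts. All libraries of the other 8 genes held at least 15 counts.

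The promoters of Egfr and Areg, the least counted genes, are shown with that of Erbb2, the most abundant receptor, so that their sequence can be read beside their levels. Each window runs from 250 bases before to 50 bases after the start of transcription, 5′ to 3′ on the gene's strand, in RefSeq's annotation of GRCm38.p6. Of the 10 genes, 7 had a promoter entry that was used. Entries of another length or on an excluded chromosome were left out. Capitals mark 4 motifs searched on both strands: the GC box GGGCGG, the TATA box TATAAA, the AP-1 site TGACTCA and the cAMP response element TGACGTCA.
Egfr, chr11:16751953-16752252, plus strand: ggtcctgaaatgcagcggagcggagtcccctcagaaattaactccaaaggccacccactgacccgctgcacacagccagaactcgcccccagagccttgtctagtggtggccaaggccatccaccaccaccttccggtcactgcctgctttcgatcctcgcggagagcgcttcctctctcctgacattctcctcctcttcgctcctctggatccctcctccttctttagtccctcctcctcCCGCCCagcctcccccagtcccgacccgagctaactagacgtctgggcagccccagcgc
Erbb2, chr11:98412234-98412533, plus strand: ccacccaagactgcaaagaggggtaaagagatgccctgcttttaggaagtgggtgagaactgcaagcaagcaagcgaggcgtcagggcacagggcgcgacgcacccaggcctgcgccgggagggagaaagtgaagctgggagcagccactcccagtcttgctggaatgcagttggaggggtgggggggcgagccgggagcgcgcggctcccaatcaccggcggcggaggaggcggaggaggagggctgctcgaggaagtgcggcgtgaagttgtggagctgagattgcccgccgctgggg
Areg, chr5:91139349-91139648, plus strand: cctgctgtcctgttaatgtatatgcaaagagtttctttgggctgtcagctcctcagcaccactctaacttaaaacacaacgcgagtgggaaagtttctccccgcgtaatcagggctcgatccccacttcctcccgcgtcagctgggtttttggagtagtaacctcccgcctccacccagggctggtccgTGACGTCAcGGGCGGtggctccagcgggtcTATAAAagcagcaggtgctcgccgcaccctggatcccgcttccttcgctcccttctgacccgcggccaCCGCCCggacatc
The Egfr window is 62.3% G and C with 15 CpG pairs, the Erbb2 window 66% with 21 and the Areg window 59.3% with 21, while the median of 32851 mouse promoters of the same length is 7 CpG pairs. Egfr holds 1 GC box, a motif found in 35.7% of those promoters. Erbb2 holds none of the 4 motifs. Areg holds 2 GC boxes, 1 TATA box, found in 13.6% of promoters, and 1 cAMP response element, found in 1.79%. None of the 3 windows holds the AP-1 site, which 5.2% of promoters do. The cAMP response element, added to the search after seeing the data, is not particular to Areg. An Errfi1 entry, not shown, holds 1 as well, with 1 TATA box and 3 GC boxes, while another Errfi1 entry holds none of the 4 motifs. Such matches are letters in a window and carry no statement about a bound factor.

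The 9 libraries held 17905769 to 18293060 counts each. TMM, the scaling by edgeR that assumes no change in most genes, gave factors of 1.26 to 1.27 in Ctrl, 1.21 in Cu-Cys and 0.640 to 0.665 in Cadict. The 100 most counted genes took 17.2% to 17.4% of Ctrl counts, 17.9% to 18.2% of Cu-Cys counts and 29.8% to 31.1% of Cadict counts. The Cadict values depend on the scaling, since with library totals in place of TMM, the median log2 change of all genes against Ctrl moved by -0.95. Counts scaled to a common library size (CPM) and fold changes are on the TMM scale unless stated. A gene was called where its fold change was at least 2 and its adjusted p at most 0.001. A count of 0 allows up to 3 counts, or 0.130 to 0.261 CPM by library, for counting error only. Against the labelled origin, some epithelial markers were at or near 0. Epcam was at 0 in every Ctrl and Cu-Cys library and at 4, 0 and 0 counts in Cadict, and Krt18 at 0 to 2 counts in all 9. Of 8 epithelial markers with a row, 2 (Krt19 and Cdh1) had at least 10 counts in every library. Both were called higher in Cadict than in Ctrl, beside 20.7% of all genes, and neither was called in Cu-Cys against Ctrl. The summed level of the list was 4.83 to 6.86 TPM in Ctrl, 3.75 to 4.43 in Cu-Cys and 11.7 to 13.6 in Cadict. All 6 mesenchymal markers were counted throughout, summing to 3292 to 3446 TPM in Ctrl, 2811 to 2959 in Cu-Cys and 1178 to 1265 in Cadict. Ptprc, the pan-leukocyte marker, had 1 to 4 counts per library, and the summed leukocyte list was 7.7 to 8.76 TPM in Ctrl, 4.79 to 6 in Cu-Cys and 15.3 to 18.7 in Cadict, with Cd68 the one marker of 5 above 10 counts throughout. The 3 endothelial markers summed to at most 1.2 TPM in any library. What part these marker shifts have in the results was not tested. In bulk RNA, fewer cells that express a gene and less of its RNA per cell cannot be told apart.

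**Figure D1:**
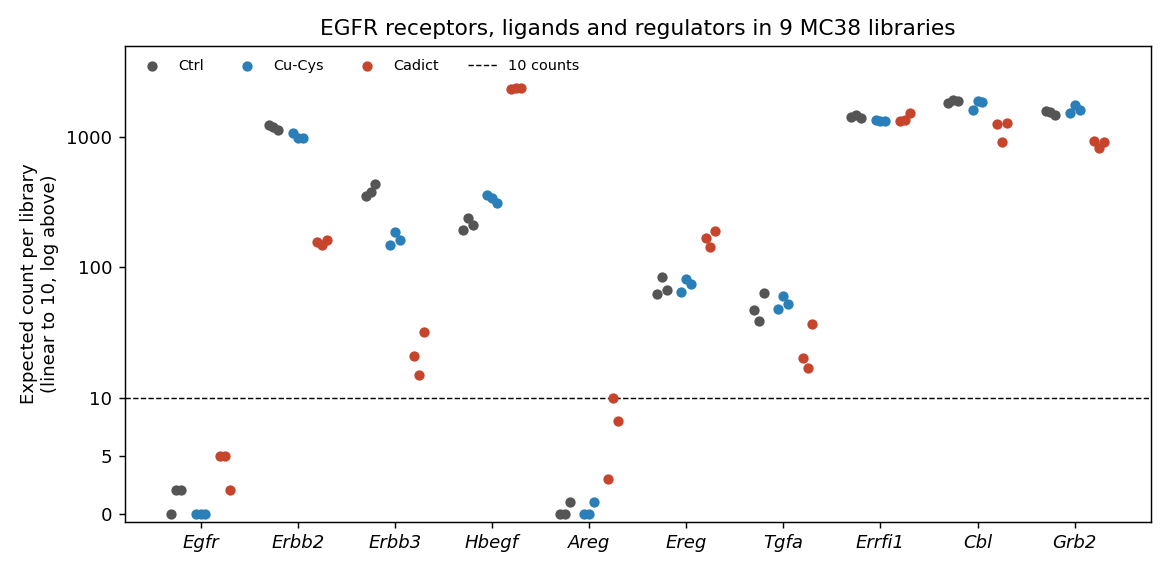
Expected counts of the 10 genes in each of the 9 libraries (1 point per library, coloured by group; the vertical axis is linear up to 10 counts, dashed line, and logarithmic above). Egfr lies between 0 and 5 in all libraries and Areg reaches 10 in 1 Cadict library, while Hbegf lies at 2318 to 2383 in the 3 Cadict libraries.

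Of the 8 genes that could be tested, 4 were called in Cadict against Ctrl: Hbegf and Ereg were higher, Erbb2 and Erbb3 lower. Over all 11949 tested genes 47.8% were called in that comparison (20.7% higher and 27.1% lower), so a count of 4 of 8 is near the background, and the sizes and directions of the single genes are what the values show. In Cu-Cys against Ctrl 1 of the 8 was called, Erbb3, which was lower, with a background of 1.64% in either direction and 1.47% lower (0.167% higher). In Cadict against Cu-Cys the same 4 genes were called in the same directions, with a background of 42.2% (18.6% higher and 23.6% lower). Both comparisons against Ctrl share the Ctrl libraries, and both with Cadict share the Cadict libraries. Without the limit on fold change and with adjusted p-values up to 0.05, Cadict against Ctrl had 5 of the genes higher and 2 lower, where 87.7% of all genes passed (40.6% higher and 47.1% lower). Under the same rule Cu-Cys against Ctrl had 2 higher and 2 lower, where 45% of all genes passed (22.6% higher and 22.4% lower). Library values did not overlap for 6 of the 8 in Cadict against Ctrl and for 3 of the 8 in Cu-Cys against Ctrl, beside 87.5% and 61.2% of all tested genes.

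**Figure D2:**
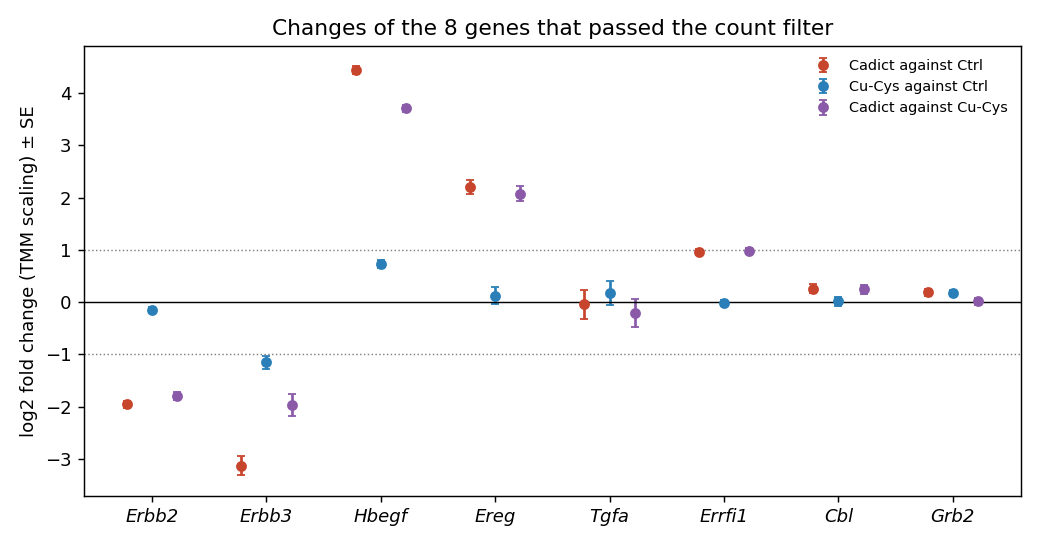
Fitted log2 fold changes on the TMM scale for the 8 tested genes in the 3 comparisons (points, with bars of 1 SE; dotted lines mark a fold change of 2 either way). Hbegf stands at 4.43 and Erbb3 at -3.13 in Cadict against Ctrl, while Tgfa, Cbl and Grb2 stay within the dotted lines in all 3 comparisons.

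Among the receptors, Egfr summed to 4 counts over the Ctrl libraries (exact Poisson 95% interval 1.09 to 10.2), 0 over Cu-Cys (upper bound 3.69) and 12 over Cadict (6.20 to 21.0). Scaled to CPM this was 0.0578, 0 and 0.341. The count of 2 in the lowest Cadict library was also found in 2 of the Ctrl libraries. On the TMM scale the ratio of Cadict to Ctrl was 5.90, with a counting interval of 1.79 to 25.1. On library totals it was 3.05 with an interval of 0.924 to 12.96, which includes no difference, so on that scale a change in Egfr against Ctrl was not detectable at this depth. Against Cu-Cys, at 0 in all 3 libraries, no ratio can be given, and the lower end of its 95% counting interval was 5.17 with TMM and 2.80 on library totals. These intervals cover counting error only. By length-corrected level, Egfr stood at 0.00, 0.03 and 0.08 TPM in Ctrl, at 0.00 in each Cu-Cys library and at 0.05, 0.06 and 0.01 TPM in Cadict. Its mean lay above 16.3% of all genes of the table in Ctrl, 0% in Cu-Cys and 17.7% in Cadict. In the GENCODE M21 annotation, 0.231% of the 50-base stretches of the Egfr transcripts occur in another gene's transcripts.

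Erbb2, the receptor with no known ligand that is the favoured partner of the others, held 1242, 1201 and 1124 counts in Ctrl, 1067, 976 and 984 in Cu-Cys, and 157, 148 and 162 in Cadict. Every Cadict library lay far below every other library. Scaled levels were 51.6 ± 2.38 CPM in Ctrl, 46.2 ± 2.59 in Cu-Cys and 13.3 ± 0.356 in Cadict (SD, n = 3). Against Ctrl, Erbb2 was 3.88-fold lower in Cadict (log2 fold change -1.96, SE 0.07, edgeR adjusted p = 8.6e-13). For Cu-Cys the log2 fold change was -0.16 (SE 0.06, edgeR adjusted p = 0.0401), within 2-fold and with the Ctrl and Cu-Cys libraries overlapping on this scale. Against Cu-Cys, Cadict was 3.48-fold lower (edgeR adjusted p = 3.35e-12).

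Erbb3, a receptor with little kinase activity of its own that binds neuregulins and couples to PI3-kinase, fell in both treatments. The counts were 350, 381 and 440 in Ctrl, 149, 188 and 161 in Cu-Cys, and 21, 15 and 32 in Cadict. The 3 groups did not overlap, with Ctrl highest and Cadict lowest. Levels were 16.9 ± 2.06 CPM in Ctrl, 7.605 ± 0.890 in Cu-Cys and 1.93 ± 0.701 in Cadict (SD, n = 3). Erbb3 was 2.23-fold lower in Cu-Cys than in Ctrl (log2 fold change -1.15, SE 0.12, edgeR adjusted p = 3.56e-06) and 8.73-fold lower in Cadict than in Ctrl (log2 fold change -3.13, SE 0.18, edgeR adjusted p = 1.7e-10). Between the treatments it was 3.92-fold lower in Cadict (edgeR adjusted p = 2.83e-07). It was the gene called in Cu-Cys against Ctrl, a call that limma on log2(FPKM + 1) or log2(TPM + 0.1) did not make.

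By length-corrected level within each library, a share that scaling between libraries does not touch, Erbb2 made up 78.6% ± 2.91 of the receptor TPM in Ctrl, 88.0% ± 1.70 in Cu-Cys and 88.1% ± 2.06 in Cadict (SD, n = 3). Erbb3 made up 21.3% ± 2.78, 12.0% ± 1.70 and 10.4% ± 3.18 of it. Egfr made up 0.125% ± 0.138 in Ctrl, 0% in Cu-Cys and 1.53% ± 1.12 in Cadict. The receptors summed to 30.0 ± 0.826 TPM in Ctrl, 21.7 ± 0.722 in Cu-Cys and 2.81 ± 0.403 in Cadict, with no overlap between groups. Unlike the shares, these sums depend on the scaling and are not on the TMM scale. On that scale Erbb2 was 3.88-fold and Erbb3 8.73-fold lower in Cadict than in Ctrl. Erbb4 was not analysed here.

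Hbegf, the heparin-binding ligand of EGFR and ErbB4, rose most among the 8 tested genes. It held 193, 239 and 213 counts in Ctrl, 356, 343 and 313 in Cu-Cys, and 2318, 2383 and 2379 in Cadict. No 2 groups overlapped. Levels were 9.33 ± 1.00 CPM in Ctrl, 15.5 ± 1.09 in Cu-Cys and 201.5 ± 5.56 in Cadict (SD, n = 3). Hbegf was 21.6-fold higher in Cadict than in Ctrl (log2 fold change 4.43, SE 0.08, edgeR adjusted p = 2.05e-16) and 13-fold higher than in Cu-Cys (edgeR adjusted p = 9.01e-16). On library totals its log2 fold change against Ctrl was 3.48. In Cu-Cys it was 1.66-fold higher than in Ctrl (log2 fold change 0.73, SE 0.09, edgeR adjusted p = 1.07e-05), short of the 2-fold limit. Its mean level rose from above 49.3% of all genes of the table in Ctrl, by TPM, to above 58.1% in Cu-Cys and above 91.6% in Cadict.

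Ereg, the precursor of epiregulin, which binds EGFR and ErbB4, rose in Cadict. It held 62, 85 and 67 counts in Ctrl, 65, 81 and 75 in Cu-Cys, and 167, 143 and 191 in Cadict. The Cadict libraries lay above all others, and those of Ctrl and Cu-Cys overlapped. Levels were 3.09 ± 0.521 CPM in Ctrl, 3.37 ± 0.355 in Cu-Cys and 14.2 ± 1.79 in Cadict (SD, n = 3). The fold change was 4.595 against Ctrl (log2 2.20, SE 0.14, edgeR adjusted p = 3.56e-10) and 4.21 against Cu-Cys (edgeR adjusted p = 8.06e-10), whereas Cu-Cys differed from Ctrl by a log2 fold change of 0.13 (SE 0.16, edgeR adjusted p = 0.558). The size depends on the scale: with limma on log2 TPM or FPKM the log2 change against Ctrl was 0.64 to 0.87, still positive but under 2-fold.

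Areg, the precursor of amphiregulin, an EGFR ligand with a heparin-binding stretch, summed to 1 count in Ctrl, 1 in Cu-Cys and 21 in Cadict (exact Poisson 95% interval 13 to 32.1). Each Cadict library, at 3, 10 and 8 counts, lay above each of the other 6, at 0 or 1. The ratio of Cadict to Ctrl was 41.3 with a counting interval of 6.64 to 1708 on the TMM scale, and 21.3 with an interval of 3.43 to 882 on library totals. At 0.570 TPM on average in Cadict, its level stayed low beside Hbegf.

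Tgfa, the precursor of TGF-alpha, a ligand of EGFR alone, held 47, 39 and 64 counts in Ctrl, 48, 60 and 52 in Cu-Cys, and 20, 17 and 37 in Cadict. Raw counts were lowest in Cadict, but scaled levels overlapped in all 3 groups, at 2.17 ± 0.564 CPM in Ctrl, 2.44 ± 0.272 in Cu-Cys and 2.1 ± 0.882 in Cadict (SD, n = 3). No comparison passed, with log2 fold changes of -0.04 (SE 0.27, edgeR adjusted p = 0.882) in Cadict against Ctrl and 0.17 (SE 0.23, edgeR adjusted p = 0.574) in Cu-Cys against Ctrl. On library totals the first of these was -0.99 (edgeR adjusted p = 0.00251).

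The other ligands of the family were taken from a fixed list of 7, of which Nrg3 was not analysed here. Btc, the precursor of betacellulin, held 64, 55 and 68 counts in Ctrl, 58, 62 and 74 in Cu-Cys, and 170, 133 and 175 in Cadict, and was 5.02-fold higher in Cadict than in Ctrl (edgeR adjusted p = 1.5e-10). By mean TPM the rise was smaller, from 2.27 in Ctrl to 4.65 in Cadict. Egf itself held 21, 16 and 29 counts in Ctrl, 19, 15 and 26 in Cu-Cys, and 8, 4 and 4 in Cadict, a log2 fold change of -1.06 against Ctrl that passed at 0.05 but not the call rule (edgeR adjusted p = 0.0257). Epgn, the gene of epigen, was listed at 0, 0 and 0, then 1, 0 and 0, then 3, 2 and 1 counts in Ctrl, Cu-Cys and Cadict.

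Of the neuregulins, which bind ErbB3 and ErbB4 and not EGFR, Nrg1 alone could be tested. It held 546, 560 and 567 counts in Ctrl, 776, 701 and 742 in Cu-Cys, and 285, 250 and 285 in Cadict. Scaled, it was 24.2 ± 0.555 CPM in Ctrl, 33.9 ± 1.88 in Cu-Cys and 23.3 ± 1.33 in Cadict (SD, n = 3), with a log2 fold change of 0.49 in Cu-Cys against Ctrl (edgeR adjusted p = 2.89e-05) and -0.05 in Cadict against Ctrl (edgeR adjusted p = 0.492). Its mean TPM was 11.5 in Ctrl, 13.2 in Cu-Cys and 4.83 in Cadict, so the Cadict reading depends on the scale. Nrg2 and Nrg4 were below the count filter, with 6 to 8 and 5 to 7 counts in Ctrl, 2 to 11 and 6 to 10 in Cu-Cys, and 0 to 1 and 0 to 2 in Cadict.

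Within each library, Hbegf took the largest share of the summed TPM of the 7 EGFR-binding ligands. That share was 61.3%, 66.6% and 59.7% in Ctrl, 74.9%, 72.1% and 68.3% in Cu-Cys, and 90.2%, 91.5% and 89.3% in Cadict, so the groups did not overlap. Ereg took 11.1% ± 1.43 in Ctrl and 3.44% ± 0.455 in Cadict, and Tgfa 7.07% ± 1.71 and 0.457% ± 0.192 (SD, n = 3). Both shares were thus smaller in Cadict, although the scaled level of Ereg was higher there. The EGFR-binding ligands summed to 15.5 ± 0.902 TPM in Ctrl, 20.3 ± 0.306 in Cu-Cys and 94.2 ± 8.20 in Cadict, sums that are not on the TMM scale. With the neuregulins included, Nrg1 took 41.6% ± 2.19 of ligand TPM in Ctrl, 38.6% ± 1.37 in Cu-Cys and 4.86% ± 0.199 in Cadict.

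**Figure D3:**
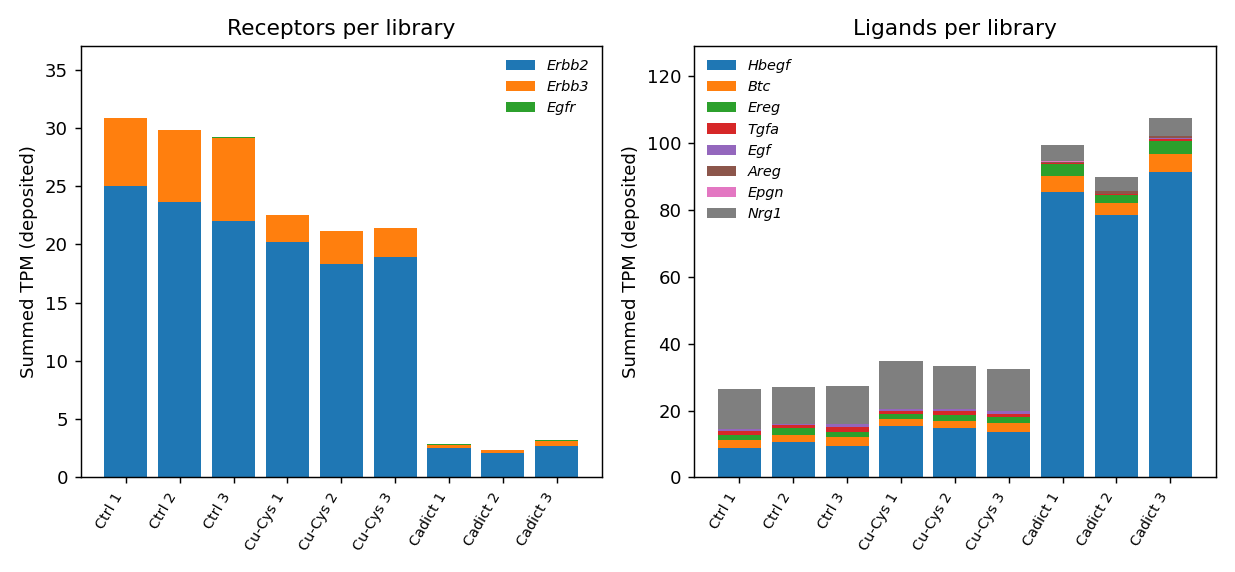
Deposited TPM of the 3 receptors (left) and of 8 ligands (right), stacked by gene for each of the 9 libraries. Summed receptor TPM is 29.2 to 30.9 in Ctrl and 2.38 to 3.18 in Cadict, and Hbegf fills most of the ligand bars in Cadict.

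The 3 regulators and adaptors moved less than the called receptors and ligands, and their directions rest on the scaling. Errfi1, which binds the EGFR kinase domain and blocks it, held 1426, 1463 and 1390 counts in Ctrl, 1340, 1328 and 1334 in Cu-Cys, and 1338, 1346 and 1528 in Cadict. Raw counts of Ctrl and Cadict overlapped, while the scaled levels of 61.9 ± 1.37 CPM in Ctrl, 61.1 ± 0.608 in Cu-Cys and 119.8 ± 7.61 in Cadict (SD, n = 3) did not overlap between Cadict and the others. Its log2 fold change in Cadict against Ctrl was 0.95 (SE 0.05, edgeR adjusted p = 1.26e-10), just short of 2-fold. With DESeq2's size factors it was 1.07, past that limit, on library totals it was 0 to 2 decimals (edgeR adjusted p = 1), and with limma on log2(TPM + 1) it was -0.35. For Cu-Cys against Ctrl it was -0.02 (SE 0.05, edgeR adjusted p = 0.825).

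Cbl, the ubiquitin ligase that marks active EGFR for degradation, held 1831, 1912 and 1895 counts in Ctrl, 1621, 1901 and 1870 in Cu-Cys, and 1249, 917 and 1271 in Cadict. On the TMM scale levels were 81.5 ± 2.02 CPM in Ctrl, 82.3 ± 6.58 in Cu-Cys and 97.6 ± 15.3 in Cadict (SD, n = 3). Cadict replicate 2, at 79.9 CPM, lay within the Ctrl range of 79.2 to 82.8. The log2 fold change in Cadict against Ctrl was 0.26 (SE 0.09, edgeR adjusted p = 0.014), which turned to -0.69 on library totals (edgeR adjusted p = 4.53e-06) and to -1.04 with limma on log2(TPM + 0.1), where Cbl met the call rule as lower (limma adjusted p = 1.68e-04). For Cu-Cys against Ctrl it was 0.01 (SE 0.09, edgeR adjusted p = 0.915). Among the transcripts of Cbl, 2.07% of 50-base stretches occur in other genes.

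Grb2, the adaptor that links phosphorylated EGFR to the RAS exchange factor SOS, held 1588, 1550 and 1465 counts in Ctrl, 1536, 1758 and 1614 in Cu-Cys, and 926, 827 and 908 in Cadict. Its levels were 66.6 ± 2.45 CPM in Ctrl, 75.0 ± 4.90 in Cu-Cys and 75.7 ± 3.34 in Cadict (SD, n = 3), with Ctrl below both treatments and the treatments overlapping. The log2 fold changes against Ctrl were 0.17 in Cu-Cys (SE 0.06, edgeR adjusted p = 0.028) and 0.19 in Cadict (SE 0.06, edgeR adjusted p = 0.0104). On library totals the second was -0.77 (edgeR adjusted p = 1.01e-08), and with limma on log2(TPM + 1) it was -1.10 (limma adjusted p = 2.47e-07), where Grb2 met the call rule as lower. Grb2 shares 7.54% of its 50-base stretches with 2 other genes, so a part of its reads could have been split with them.

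Ordered by TPM, which corrects for transcript length, the 10 genes in Ctrl ran from Grb2 at 60.4 TPM through Errfi1 at 48.6, Erbb2 at 23.6, Cbl at 15.9, Hbegf at 9.72, Erbb3 at 6.36, Ereg at 1.73 and Tgfa at 1.10 down to Egfr at 0.0367 and Areg at 0.0333. Each neighbour in this order lay outside the other's range over 3 libraries except Egfr and Areg. In Cu-Cys the order was the same down to Erbb2 and again from Erbb3 to Tgfa. Between them Hbegf, at 14.6 TPM, and Cbl, at 14.5, overlapped, as did Areg at 0.0333 and Egfr at 0. In Cadict Hbegf came first at 85.0 TPM, followed by Errfi1 at 38.2, Grb2 at 27.8 and Cbl at 7.80, none of them overlapping. Ereg at 3.27 and Erbb2 at 2.47 overlapped, and so did Areg at 0.570 with Tgfa at 0.440 and Tgfa with Erbb3 at 0.300. Egfr was last at 0.0400 TPM, below the range of Erbb3.

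The wider pathway was read from 96 further genes in lists by role, of which 94 had a row and 88 were tested. The lists were written from general knowledge but with earlier results of these data known, so their shares are no independent test. In Cadict against Ctrl 37 of the 88 were called, 23 higher and 14 lower, or 42% beside 47.8% of all genes. None of the 88 was called in Cu-Cys against Ctrl by edgeR or DESeq2, beside 1.64% of all genes. An unadjusted p under 0.05 in edgeR was found for 51 of them, with no share of all genes taken at that limit. At the looser adjusted threshold of 0.05, 20 rose and 26 fell, where 45% of all genes passed (22.6% higher and 22.4% lower). Between the treatments, 33 were called, of which 23 were higher in Cadict, or 37.5% beside 42.2%. The median log2 fold change over the 88 was 0.03 in Cadict against Ctrl, beside -0.13 over all genes. On library totals the same comparison called 11 higher and 37 lower, a turn in the balance that all genes also showed, from 2472 higher and 3235 lower with TMM to 828 higher and 6148 lower.

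Genes that ERK signalling is known to switch on early had the largest share called among the lists with at least 5 tested genes. Of 10 tested, 6 were called higher and 3 lower in Cadict against Ctrl, or 90% beside 47.8% of all genes, with a median log2 fold change of 2.08. Phlda1 held 694, 663 and 609 counts in Ctrl, 571, 506 and 559 in Cu-Cys, and 5730, 5896 and 6196 in Cadict, and was 17.8-fold higher in Cadict than in Ctrl (log2 fold change 4.16, SE 0.06, edgeR adjusted p = 8.16e-17). Egr1, a zinc finger factor of the immediate early response, held 425, 467 and 461 counts in Ctrl, 379, 359 and 364 in Cu-Cys, and 3804, 3418 and 4836 in Cadict (log2 fold change against Ctrl 4.13, SE 0.10, edgeR adjusted p = 6.15e-15). Ccnd1, the gene of cyclin D1, went the other way, from 24457, 24530 and 24129 counts in Ctrl to 17488, 18662 and 18203 in Cu-Cys and 1242, 1252 and 1441 in Cadict (log2 fold change against Ctrl -3.24, SE 0.06, edgeR adjusted p = 3.11e-16). To complete the list, outside the naming rule, Fos, Fosl1, Ier2 and Ier3 were called higher with log2 fold changes of 3.77, 2.70, 1.46 and 2.80, Myc and Etv5 lower with -1.09 and -1.16, and Etv4 had -0.04 (edgeR adjusted p = 0.682). On library totals 5 of the 10 were called higher and 3 lower, beside 828 higher and 6148 lower of all 11949 genes, and the sign of none of the 10 changed. Cu-Cys against Ctrl gave no call among the 10, beside 1.64% of all genes. Adjusted p-values up to 0.05 were found there for 3 that rose and 3 that fell, where 45% of all genes passed (22.6% higher and 22.4% lower).

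Among genes of receptor endocytosis and degradation, 9 of 21 tested were called higher in Cadict than in Ctrl and 1 was called lower, or 47.6% in all beside 47.8% of all genes. Rab5a, the GTPase of early endosomes, held 2524, 2525 and 2595 counts in Ctrl, 2567, 2766 and 2632 in Cu-Cys, and 8818, 7768 and 9351 in Cadict (log2 fold change against Ctrl 2.74, SE 0.06, edgeR adjusted p = 1.96e-15). Stam, part of the complex that sorts ubiquitinated receptors, and Rab11a, the GTPase of recycling endosomes, had log2 fold changes of 2.18 and 2.17. These 3 stayed higher on library totals, at 1.78, 1.23 and 1.21, whereas the list as a whole went from 9 called higher and 1 lower to 4 higher and 6 lower. All genes went from 2472 called higher and 3235 lower to 828 higher and 6148 lower.

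Of the feedback inhibitors 3 of 15 tested were called higher and 3 lower in Cadict than in Ctrl with TMM, or 40% beside 47.8% of all genes, and 1 higher and 5 lower on library totals. Spry4 and Dusp6, inhibitors of the ERK pathway that it induces itself, had log2 fold changes of 2.003 and 1.32, and Lrig3, of a family of membrane proteins that act on receptors, had -1.73. With Cu-Cys, Spry4 had 0.50 (SE 0.12, edgeR adjusted p = 0.00346) and Dusp6 had 0.28 (SE 0.06, edgeR adjusted p = 0.00199), both within 2-fold. Of the adaptors and the RAS-ERK cascade 2 of 18 were called higher and 3 lower with TMM, or 27.8% beside 47.8%, and 0 higher and 9 lower on library totals. Shc1, an adaptor of activated EGFR, had 1.17, Gab1, a docking protein for PI3-kinase and the phosphatase SHP2, had -1.87, and Rps6ka1, a kinase below ERK, had -2.59, with 707, 670 and 694 counts in Ctrl and 60, 54 and 61 in Cadict. On library totals Shc1 was at 0.22, and of all 11949 genes 828 were called higher and 6148 lower.

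Of the PI3K-AKT, PLC and STAT branches 0 of 14 were called higher and 4 lower with TMM, or 28.6% beside 47.8% of all genes (20.7% higher and 27.1% lower). On library totals 0 were called higher and 9 lower, beside 828 higher and 6148 lower of all 11949 genes. Pik3r2, a regulatory subunit of PI3-kinase, held 1820, 1874 and 1770 counts in Ctrl, 1450, 1395 and 1458 in Cu-Cys, and 81, 80 and 85 in Cadict, 11.3-fold lower than in Ctrl (edgeR adjusted p = 9.66e-16). Stat5b and Plcg1 had log2 fold changes of -1.17 and -1.05. Among genes of ligand shedding 2 of 7 tested were called higher and 0 lower with TMM, or 28.6% beside 47.8%, and 0 higher and 3 lower on library totals. Adam9, a membrane protease, had 1.58, Timp3, an inhibitor of such proteases, had 1.26, and Rhbdf1, which is needed to bring ADAM17 to the surface, had -0.84, inside the 2-fold limit. Adam17, the main sheddase of these ligands, and Adam10 are named outside the rule, for their role. Adam17 held 1840, 1757 and 1798 counts in Ctrl and 573, 476 and 576 in Cadict (log2 fold change -0.76, edgeR adjusted p = 1.14e-08), and Adam10 had -0.81, both within 2-fold on the TMM scale. By mean TPM, the falls from Ctrl to Cadict were larger. Adam17 went from 41.2 to 10.1, Adam10 from 56.8 to 13.3 and Rhbdf1 from 37.5 to 8.61.

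**Figure D4:**
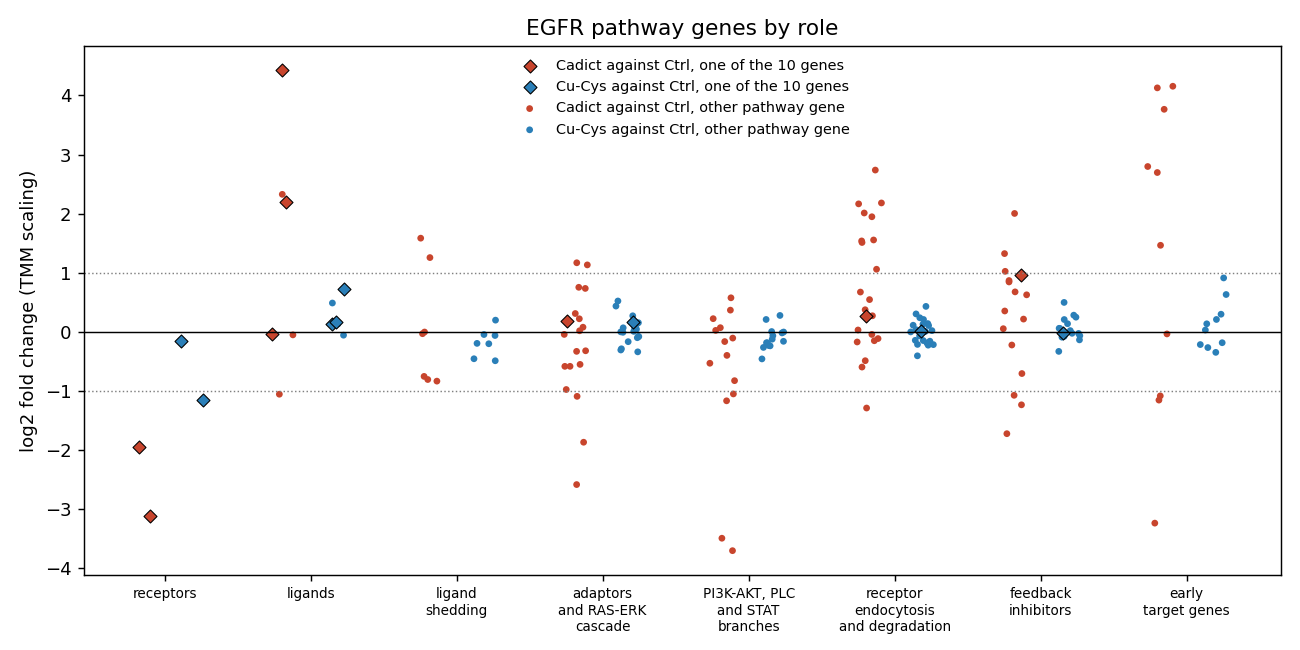
Log2 fold changes on the TMM scale of the tested pathway genes by role, against Ctrl (red, Cadict; blue, Cu-Cys; diamonds are among the 10 genes described, dots are other genes of the lists; dotted lines mark 2-fold). Cadict values of the early target genes run from -3.24 to 4.16, and Cu-Cys values of all genes except Erbb3 lie within the dotted lines.

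The 5 tested genes with the profile nearest to that of Egfr, by Euclidean distance between centred log2 CPM over the 9 libraries, were Tmc8, Slpi, Tceal1, Fbxo47 and Gm29753, at distances of 0.826 to 0.952. They too were at low counts, with Tmc8 at 20, 21 and 29 in Ctrl, 10, 15 and 12 in Cu-Cys, and 31, 41 and 25 in Cadict. With at most 5 counts per library, the Egfr profile is set largely by counting error and by the value added before the log, and the distances describe it no further.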

How the data were processed

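Messenger RNA of 9 libraries of MC38 cells was sequenced, 3 each of Ctrl, Cu-Cys and Cadict. Extraction was by column kit and sequencing by DNA nanoballs per the labels, but by TRIzol and an Illumina instrument per the study's text. The authors deposited expected counts, FPKM, TPM and a signal (counts divided by a size factor) per gene and library. The submitters' processing notes list HISAT2 2.1.0, Bowtie2 2.3.4.3 and RSEM 1.3.1 with the builds GRCm39 and GRCh38.p13, without roles. Columns headed CC were read as Cu-Cys by initials and CCGE as Cadict from its components, an inference. The deposited columns of the authors' own comparisons and averages and the signal values were not used here.

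The deposited expected counts were rounded and fitted in R 4.3.3 with edgeR 4.0.16 (filterByExpr, TMM, quasi-likelihood test, 3 groups in one fit), with Benjamini-Hochberg adjustment over 11949 genes. The call rule is the study's threshold. Deposited TPM gave levels between genes. Totals of 17905769 to 18293060 counts set the precision. Intervals for summed counts are exact Poisson intervals.

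The genes and lists were chosen with earlier results of these data known. Named pathway genes are the 3 per list with the largest absolute change in Cadict against Ctrl at an average of at least 10 CPM, and the other ligands. The cAMP response element and the ratios on library totals were added after seeing the data. Alternatives used DESeq2 1.42.0, limma 3.58.1 on deposited TPM and FPKM, other scalings and filters, a replicate block and leaving out each library. After each group's mean was subtracted per gene, log2 CPM of same-numbered libraries from different groups correlated at -0.192 to 0.152 over 8551 genes. Libraries with different numbers ran from -0.241 to 0.296, so numbers were not treated as pairs. Tested on simulated data for Cadict against Ctrl, the fit recovered 191 of 200 changed genes at an adjusted p of 0.05, with 14 false calls among 11879 genes. Only these 200 genes were changed there, as many up as down. The simulation therefore gives no error rate for the real comparison, where 47.8% of all genes were called. Shared 50-base stretches were counted in GENCODE M21 on GRCm38, and no gene coordinates from it are given for the files.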

Additional observations from a re-analysis of the deposited data

How the results depend on the processing

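Values are log2 fold changes unless named as counts. In Cadict against Ctrl, Erbb2, Erbb3 and Hbegf kept direction and call under every alternative run, and Ereg kept its direction but fell short of 2-fold with limma, at 0.64 on log2(TPM + 1), 0.87 on log2(TPM + 0.1) and 0.76 on log2(FPKM + 1). With limma on log2(TPM + 0.1), 59 pathway genes were called in Cadict against Ctrl (6 higher, 53 lower) in place of 37, and 52 in Cadict against Cu-Cys (5 higher, 47 lower) in place of 33. In Cu-Cys against Ctrl that setting and log2(FPKM + 1) called 0 of the 8 genes in place of 1, with Erbb3 at -1.27 and -0.87 and 3 of the 8 at an unadjusted p under 0.05 in each. No share of all genes was taken with limma, so the limma counts of this section have no background and show no fall or rise particular to these genes.

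The direction of genes that edgeR with TMM did not call turned as follows, and the cause was not tested. With limma some then met the call rule as lower: Grb2 on both TPM settings in both comparisons of Cadict, and Cbl on log2(TPM + 0.1) in Cadict against Ctrl, so that 1 gene was called higher and 3 or 4 lower there. On library totals Cadict against Ctrl gave Errfi1 -2.709e-06, Cbl -0.69 and Grb2 -0.77, Cu-Cys against Ctrl gave Cbl -0.054, and Cadict against Cu-Cys gave Cbl -0.64 and Grb2 -0.87. With limma on log2(TPM + 1), log2(TPM + 0.1) and log2(FPKM + 1) in turn, Cadict against Ctrl gave Errfi1 -0.35, -0.35 and -0.0086, Cbl -0.96, -1.04 and -0.62, and Grb2 -1.10, -1.12 and -0.75. The same 3 gave Cbl -0.12, -0.13 and -0.053 in Cu-Cys against Ctrl, and Cbl -0.84, -0.92 and -0.57 and Grb2 -1.12, -1.15 and -0.85 in Cadict against Cu-Cys. On the 2 TPM settings Ereg was -0.0079 and -0.0100 in Cu-Cys against Ctrl, and Errfi1 -0.19 and -0.19 between the treatments. Size factors of DESeq2 and its Wald test gave Tgfa 0.074 and 0.072 in Cadict against Ctrl and Errfi1 0.0094 and 0.0094 in Cu-Cys against Ctrl, and both put Errfi1 past 2-fold in Cadict. A minimum of 10 counts in every library gave Cbl -0.0095 in Cu-Cys against Ctrl and Grb2 -0.025 in that of Cadict and Cu-Cys, and no filter gave Grb2 -0.076 there.

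Leaving out each library in turn called 4 of the 8 genes throughout in Cadict against Ctrl, 1 in Cu-Cys against Ctrl and between 4 and 5 for the 2 treatments, the fifth being Errfi1 without Cadict replicate 1. Pathway calls ran from 35 to 38, stayed at 0, and ran from 32 to 35. Tgfa ran from -0.45 to 0.17 in Cadict against Ctrl, Errfi1 from -0.032 to 0.00036 and Cbl from -0.025 to 0.072 in Cu-Cys against Ctrl, and Grb2 from -0.024 to 0.060 in Cadict against Cu-Cys. Cadict replicate 2 differed most from its group. The chi-square per gene for count differences was 16.07 and 25.44 against replicates 1 and 3, and 3.873 between those. Pairs of Ctrl libraries had 1.914 to 2.095 and those of Cu-Cys 2.751 to 4.701. In Cadict against Ctrl, Cbl was at 0.38 without replicate 2 (edgeR adjusted p = 8.78e-07), 0.20 without replicate 1 (0.0869) and 0.19 without replicate 3 (0.0689). The replicate block called 4, 1 and 4 of the 8 genes in the 3 comparisons and changed no call of a gene; since the libraries share only a number, it says nothing of pairing. Without the filter, the fit gave Egfr 2.36 (edgeR adjusted p = 0.0199) in Cadict against Ctrl, -3.29 (0.148) in Cu-Cys against Ctrl and 5.65 (7.63e-04) in Cadict against Cu-Cys, and Areg 4.77, 0.06 and 4.70. With 0 to 5 counts per library for Egfr these depend on the prior count, and settings with a filter or pseudocount gave no test of either gene.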
